A study of Drosophila melanogaster with 2 samples.

Results

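The 10 genes described here encode factors of messenger RNA decay in Drosophila melanogaster: Smg5, Smg6, Upf1 and Upf2 of nonsense-mediated decay, Rrp6 and Dis3 of the exosome, twin and Not1 of deadenylation, Dcp1 of decapping, and the exonuclease gene pcm. They were taken by symbol from the Ensembl BDGP6 annotation, as 10 of 13945 protein-coding genes on the 6 main chromosome arms. The rule itself uses no measured value, but earlier results of these data were known when the genes were chosen. All 10 were found, and Dcp1 is written DCP1 there (the caspase gene Dcp-1 is another gene). The series is 1 group of 2 biological replicates, numbered 1 and 3, of ovaries from adult females of a transgenic line. Both come from 1 line, which carries an insertion made by site-specific recombination and makes CG17801 with GFP at its C-terminus. The sources used here do not name the promoter that drives the fusion, and the age of the flies is unknown. CG17801 is a zinc finger protein, and an anti-GFP antibody was used to recover the DNA it sits on for sequencing (ChIP-seq).

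The deposited files list peaks, stretches of dm6 where sequenced fragments pile up, each with a summit and a signal value given by the authors on a scale they do not state. Each replicate list and the list made from both replicates together (the pooled list) hold 30000 peaks. The list kept after the irreproducible discovery rate procedure (the IDR list) holds 6723, and these are the 6723 strongest of the pooled list, from a signal of 117 up to 4011. Signals describe peaks within a list, and a rank of 1 is the strongest of a list. Read depth is unknown, so no value carries a counting error. The control behind the lists was not analysed here, so sites that any GFP fusion would show cannot be told apart from sites of CG17801. Peaks do not measure expression, so the tissue label could not be checked from them. An IDR summit no more than 250 bp from a transcription start site (TSS) was found at 1 of 4 germline marker genes (osk, but not nos, bam or vas) and at 3 of 4 follicle cell marker genes (slbo, br and Fas3, but not tj), against 30.4% of all protein-coding genes.

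Cells remove messenger RNAs along a few routes. Deadenylases of the CCR4-NOT complex shorten the poly(A) tail, after which the cap is removed and the exonuclease encoded by pcm digests the body from its capped end, or the exosome digests it from the tail end. Nonsense-mediated decay sends transcripts with premature stop codons into these routes. In the fly ovary, deadenylation by twin and its partners is known to restrain maternal and germline stem cell mRNAs. The exosome also trims and destroys RNAs in the nucleus, where Rrp6 acts.

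The sequences around 6 start sites are shown first, because they hold the short promoter motifs found at the peaks of Smg6, Upf1, Upf2 and pcm, and because Rrp6 and Dis3 held none of the 3 motifs marked. Each runs 5′ to 3′ on the strand of the gene named, over 100 bases of Release 6 of the genome, the assembly of dm6. Base 71 of each is the outermost annotated TSS, so the last 30 bases are the start of the transcript. Capitals mark matches to 3 motifs of a panel of 6. The DRE, TATCGATA, is the DNA replication-related element recognised by Dref. Motif 1, here its core GGTCACAC, is recognised by the zinc finger protein M1BP. The E-box is CAGCTG. Of these motifs, motif 1 also occurred at the Dcp1 peak and the E-box at a Not1 peak beside Nt5c, and those stretches are not printed. The peaks of Smg5 and twin, which held none of the marked motifs, are not printed either. The Smg6 stretch is chr3R:25033436-25033535 (minus strand) and the Upf1 stretch chrX:11905342-11905441 (minus strand). The Upf2 stretch is chrX:8075437-8075536 (minus strand) and the Rrp6 stretch chr3R:14886217-14886316 (minus strand). The Dis3 stretch is chr3R:24333363-24333462 (plus strand). For pcm, whose peak lay at the neighbouring start of ND-18, the stretch is that of ND-18 at chrX:19492351-19492450 (plus strand).
Smg6: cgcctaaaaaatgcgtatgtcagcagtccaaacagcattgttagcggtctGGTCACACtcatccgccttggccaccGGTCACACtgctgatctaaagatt
Upf1: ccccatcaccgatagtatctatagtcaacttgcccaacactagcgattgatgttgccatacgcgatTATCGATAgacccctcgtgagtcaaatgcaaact
Upf2: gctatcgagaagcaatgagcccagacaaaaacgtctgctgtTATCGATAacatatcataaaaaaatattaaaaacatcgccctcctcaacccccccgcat
Rrp6: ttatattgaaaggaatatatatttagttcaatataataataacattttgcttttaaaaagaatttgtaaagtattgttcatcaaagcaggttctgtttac
Dis3: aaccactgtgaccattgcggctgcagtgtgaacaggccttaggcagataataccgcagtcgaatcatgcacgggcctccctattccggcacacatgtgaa
ND-18, beside pcm: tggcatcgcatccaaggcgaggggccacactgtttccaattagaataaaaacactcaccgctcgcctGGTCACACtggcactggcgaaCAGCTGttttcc

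For 7 of the 10, a TSS of the gene had an IDR summit 250 bp or less away, against 30.4% of all protein-coding genes: Smg5, Smg6, Upf1, Rrp6, twin, Not1 and Dcp1. An IDR summit lay inside or within 1 kb of 8 of the 10, the eighth being pcm, against 43.9% of all protein-coding genes. The 7 became 5 with a window of 100 bp (18.7% of all protein-coding genes), 5 when each summit counted only for the gene with the nearest TSS (24.6%) and 4 in the stronger 3361 IDR peaks (17.1%). In the pooled list all 10 had a summit within 250 bp of a TSS, against 55.4% of all protein-coding genes. No test is given for these counts, since earlier results of these data were known when the genes were chosen. The members were also longer than most genes, with a median of 5300 bp against 2166 bp over all protein-coding genes, and the part of length in the counts was not tested. The median number of TSSs was 1 in the members and 1 over all protein-coding genes, with means of 1.80 and 1.41, and twin (4), Smg5 (3) and Not1 (3) had the most. Pooled peaks were about as dense, with a median of 0.356 per kb of gene and flanks in the members and 0.321 per kb over all protein-coding genes. The strongest start-site peaks of the 7 had a median signal of 181, against 191 over the 4245 genes with such a peak. Among those genes, Smg5 stood at percentile 88.6 by signal, Rrp6 at 84.3, Upf1 at 52.2, Dcp1 at 44.6, twin at 40.7, Smg6 at 29.6 and Not1 at 8.36.

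**Figure D1:**
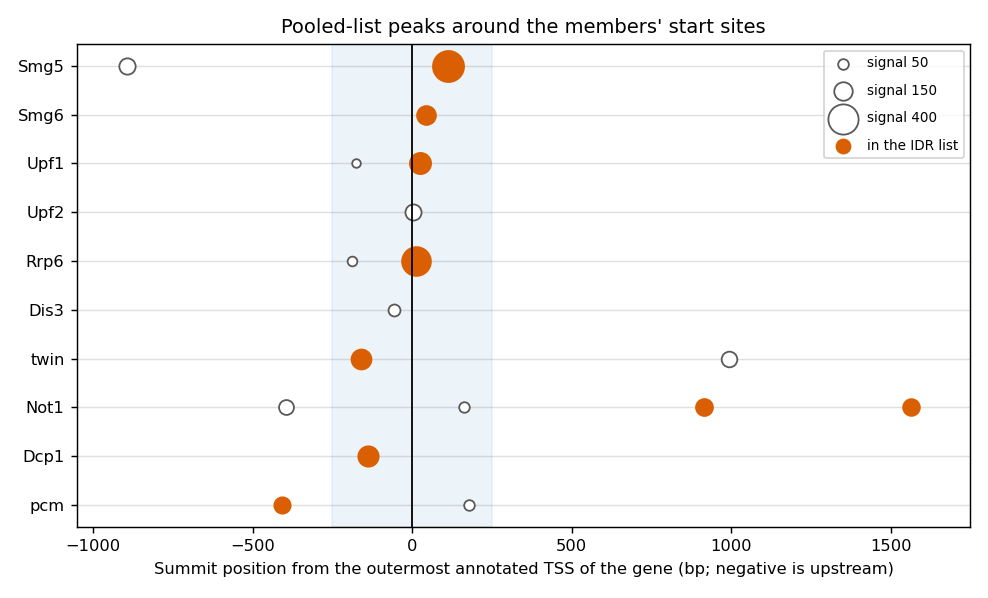
Positions of pooled-list summits from the outermost annotated TSS of each of the 10 genes, in bp, from 1000 bp upstream; circle area follows the authors' signal, orange circles are in the IDR list, and the shaded band is 250 bp to each side of the TSS. Orange circles lie within the band for 6 of the genes, while those of Not1 lie 914 and 1565 bp downstream and that of pcm 408 bp upstream; peaks beyond the axis, among them IDR peaks of twin and Not1, are not drawn.

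Among the genes of nonsense-mediated decay, Smg5 had the strongest start-site peak of the 10. Smg5 (FBgn0019890, 2L, 13898828 to 13904661, minus strand) encodes an adaptor that binds phosphorylated Upf1. Its peak, at 2L 13904400 to 13904716, had its summit at 13904549 and a signal of 422. The Smg5 peak ranked 876 in replicate 1 (signal 166) and 715 in replicate 3 (signal 253). The 2 ranks were close, and the replicate summits lay 61 and 0 bp from that of the IDR list. Smg5 has 3 annotated TSSs, and the summit lay in the 5′ untranslated region (UTR), 112 bp downstream of the outermost TSS and 73 bp upstream of the next. No panel motif lay within 100 bp of it.

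Smg6 encodes the endonuclease that cuts transcripts near a premature stop. The gene (FBgn0039260, 3R, 25029429 to 25033465, minus strand) had its summit at 25033420, 45 bp downstream of its single TSS, with a signal of 155.5. The peak ranked 2628 in replicate 1 (signal 95.5) and 5749 in replicate 3 (signal 75.6), so it stood higher in replicate 1. In the sequence printed above, motif 1 occurs on both sides of the TSS, at bases 51 to 58 and 77 to 84, both on the strand of the gene.

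Upf1 and Upf2 encode the helicase at the centre of the pathway and the partner that activates it. The replicates ranked their peaks in opposite orders. Upf1 (FBgn0030354, X, 11899996 to 11905371, minus strand) had its IDR summit at 11905346, 25 bp downstream of the TSS, with a signal of 196. The Upf1 peak ranked 1698 in replicate 1 (signal 119) and 8105 in replicate 3 (signal 58.8). Upf2 (FBgn0029992, X, 8070244 to 8075466, minus strand) had a summit at 8075462, 4 bp downstream of its TSS, with a pooled signal of 114, just under the lowest IDR signal of 117. The Upf2 peak ranked 11066 in replicate 1 (signal 37.3) and 4203 in replicate 3 (signal 92.0). Upf1 was thus the stronger of the pair in replicate 1 and Upf2 in replicate 3. Taking the 6723 strongest peaks of replicate 3 alone kept the number of members at 7 but put Upf2 in the place of Upf1. With 2 replicates, no test of that difference was possible.

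Of the 13 member peaks examined for motifs (the 11 in the IDR list and the pooled ones of Upf2 and Dis3), those of Upf1 and Upf2 held a DRE. Among the 11 IDR summits alone it occurred at 1, against 10.4% of IDR summits at start sites. The Upf2 peak is outside the IDR list, so the DRE is not read as particular to the members. In Upf1 it spans the TSS, at bases 67 to 74 of the printed stretch, and in Upf2 it lies upstream, at bases 42 to 49. The summits fall at base 96 of the Upf1 stretch and base 75 of the Upf2 stretch, so in both the DRE lay upstream of the summit.

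The 2 exosome nucleases differed widely in rank. Rrp6 (FBgn0038269, 3R, 14882498 to 14886246, minus strand) encodes a nuclease of the nuclear exosome. Its peak spanned 14886120 to 14886404, with the summit at 14886235, 11 bp downstream of the outermost TSS. The signal was 363. It ranked 776 in replicate 1 (signal 176) and 1259 in replicate 3 (signal 186). The start shared by CG33331 and CG33332, on the other strand, lay 221 bp from the summit. The printed Rrp6 stretch is rich in A and T, and the 201 bp around the summit were 76.1% A+T, against a median of 60.2% (quartiles 54.2% and 66.7%) over 3699 IDR summits at start sites. A TATAAA match lay 66 to 71 bp upstream of the TSS, at the edge of the printed stretch and cut by it.

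Dis3 encodes the catalytic subunit of the exosome. The gene (FBgn0039183, 3R, 24333433 to 24337248, plus strand) had no IDR summit in the gene or within 1 kb. Its strongest pooled peak had its summit at 24333375, 58 bp upstream of the TSS, in the 117 bp between the starts of Dis3 and of Rrp5 on the other strand. The pooled signal was 62.4 and the rank 13660. In replicate 1 the nearest summit, 82 bp away and nearer to the start of Rrp5, ranked 21516 (signal 18.8), and in replicate 3 the summit 30 bp away ranked 6834 (signal 66.9). The IDR list keeps pooled ranks up to 6723, and the replicate lists have no such cut of their own. Beside that number, the Dis3 rank was close in replicate 3 and far weaker in replicate 1. None of the 6 motifs lay within 100 bp of the summit.

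**Figure D2:**
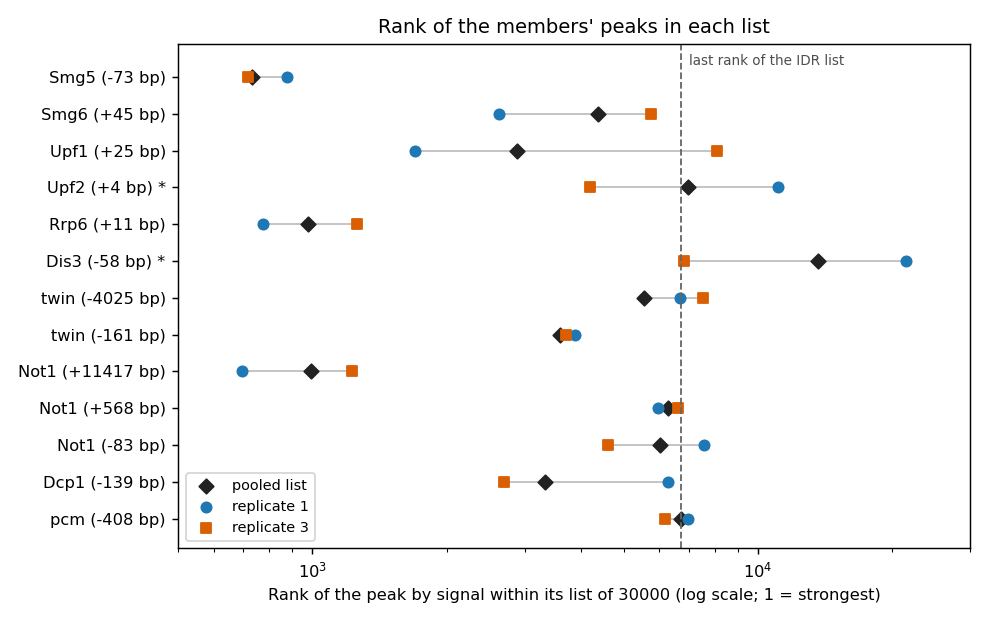
Rank of each peak by signal within the pooled list and the 2 replicate lists, on a log axis with the strongest to the left; rows give the gene and the distance in bp from its nearest TSS, asterisks mark peaks outside the IDR list, and the dashed line is the last rank of that list, 6723. The rows of Upf1 and Upf2 run in opposite directions, with replicate 1 ahead for Upf1 (1698 against 8105) and behind for Upf2 (11066 against 4203).

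The deadenylation genes twin and Not1 are the longest of the 10 and had several peaks each. The gene twin (FBgn0011725, 3R, 24196893 to 24221965, minus strand) encodes the CCR4 deadenylase and has 4 annotated TSSs. Its stronger IDR peak had a summit at 24222126 and a signal of 173, and ranked 3885 in replicate 1 (signal 77.7) and 3702 in replicate 3 (signal 99.7). These ranks differed by a factor of 1.05, the smallest of the members' IDR peaks. The summit lay 161 bp upstream of the outermost twin TSS, but 116 bp upstream of a TSS of cav, which runs the other way, and in an intron of longer cav transcripts.

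A second IDR peak lay inside twin, in an intron, 4025 bp upstream of the nearest twin TSS. Its summit was at 24205511 with a signal of 133, and it ranked 6671 in replicate 1 (signal 56.0) and 7517 in replicate 3 (signal 62.4). The pooled list had 13 peaks in twin and its flanks. An internal twin TSS had a pooled peak 89 bp upstream, with a signal of 107 and rank 7578.

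Not1 encodes the scaffold of the CCR4-NOT complex. The gene (FBgn0085436, 2R, 9566146 to 9579007, minus strand) has 3 annotated TSSs, and 3 IDR summits lay in it or within 1 kb. At one of its internal TSSs, a summit at 9578093 lay 83 bp upstream, with a signal of 125, and ranked 7585 in replicate 1 (signal 51.2) and 4615 in replicate 3 (signal 87.0). A second, at 9577442 with a signal of 122, lay 15 bp downstream of a TSS of Nt5c on the other strand, in a Not1 intron, and ranked 5956 in replicate 1 (signal 60.4) and 6610 in replicate 3 (signal 68.4). The strongest, at 9565278 with a signal of 359, lay past the 3′ end of Not1, 88 bp upstream of the start of the non-coding gene asRNA:CR45281. That last peak ranked 694 in replicate 1 (signal 188) and 1228 in replicate 3 (signal 188). The strongest peak in the Not1 region was thus the one farthest from a Not1 TSS, at 11417 bp. At the outermost Not1 TSS the pooled list had a weaker peak, 161 bp downstream, with a signal of 48.9 and rank 17111. Its summit was nearer, at 59 bp, to the start of the non-coding gene lncRNA:CR46257. Another pooled peak, with a signal of 96.9, lay 396 bp upstream of the outermost Not1 TSS and 47 bp upstream of a TSS of Nt5c. Replicate 1 had a summit 191 bp downstream of the outermost Not1 TSS, with a signal of 63.0 and rank 5573. The nearest downstream summit in replicate 3 was at 380 bp, with a signal of 31.9 and rank 15805.

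**Figure D3:**
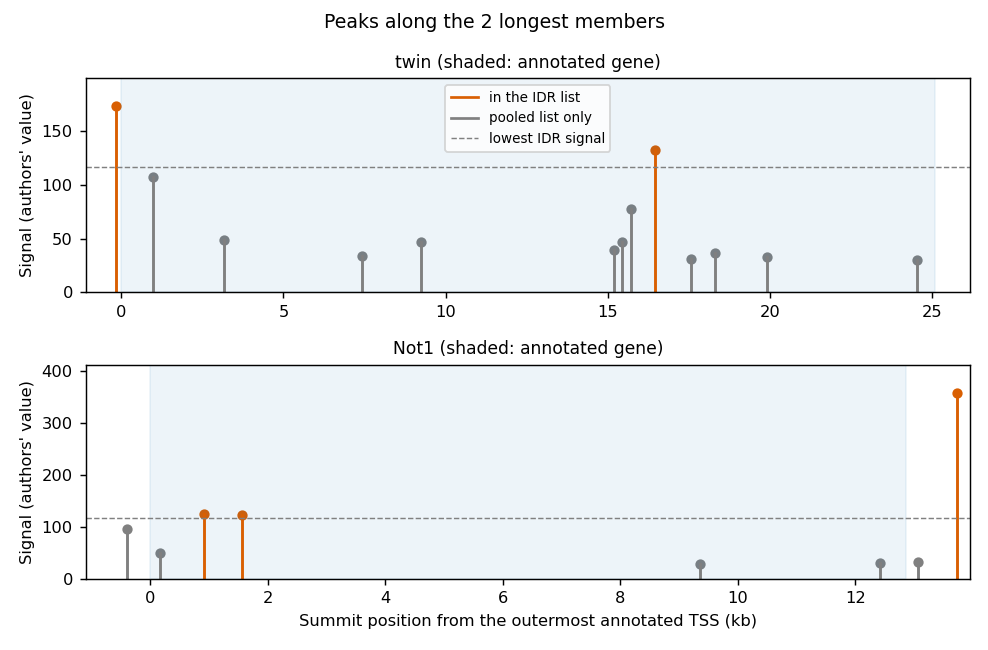
Signal of each pooled-list peak along twin (13 peaks) and Not1 (8 peaks) against the distance of its summit from the outermost annotated TSS in kb; orange stems are in the IDR list, the shaded span is the annotated gene, and the dashed line is the lowest signal of the IDR list, 117. In twin the strongest peak is at the start of the gene, while in Not1 it lies past the end, with a signal of 359.

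Dcp1 encodes the activator of the decapping enzyme. Written DCP1 in the annotation (FBgn0034921, 2R, 23888764 to 23890276, minus strand), it had 1 peak in each of the 4 lists. The IDR summit, at 23890415 with a signal of 181, lay 139 bp upstream of its TSS and 97 bp upstream of the TSS of DNAlig1, the DNA ligase gene on the other strand, and thus within the 236 bp between both starts. It ranked 6295 in replicate 1 (signal 58.3) and 2690 in replicate 3 (signal 120), so it stood higher in replicate 3. A motif 1 match lay 43 to 50 bp upstream of the Dcp1 TSS, which is 89 to 96 bp from the summit.

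The exonuclease gene pcm is the fly counterpart of XRN1. It (FBgn0020261, X, 19485759 to 19492011, minus strand) had an IDR summit at 19492419, 408 bp upstream of its TSS and 2 bp upstream of the start of ND-18, a subunit gene of respiratory complex I on the other strand. The signal was 117, and the peak ranked 6962 in replicate 1 (signal 54.4) and 6182 in replicate 3 (signal 71.8), a factor of 1.13 apart. In the printed ND-18 stretch, motif 1 spans the TSS at bases 68 to 75, with the summit at base 69, and an E-box follows at bases 89 to 94. At the TSS of pcm itself a weaker pooled peak lay 178 bp downstream, with a signal of 49.5. Replicate 1 had a summit within 250 bp of that TSS, with a signal of 15.2 and rank 25820. Replicate 3 had none there in its 30000 peaks.

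The 8 members with an IDR peak had 11 IDR summits in all. Both replicates had a summit within 100 bp of each of the 11, as for 93.2% of the 3699 IDR summits at start sites of protein-coding genes. The IDR list was itself made from the replicate and pooled lists, so this recurrence is partly built in and is no separate support. The larger replicate rank divided by the smaller was 4.77 for Upf1, above the 90th percentile over those start-site summits, 2.95, while the median over them was 1.51. Replicate 1 gave the better rank in 6 of the 11 and replicate 3 in 5. Of the 11 summits, 5 were nearer to the TSS of another gene than to one of the member. At 4 the summit lay in the 5′ UTR of the member (Smg5, Smg6, Upf1 and Rrp6). The shares of all IDR summits with these placements were not computed, so neither count is read as particular to the members. Near the lower limit of the IDR list, the pcm peak stood inside with a signal of 116.8 and rank 6709, and a peak 893 bp upstream of Smg5, 91 bp from the start of Ance, stood outside with 116.6 and rank 6729 (Ance was named after its values were seen).

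No motif of the panel occurred at more than 4 of the 11 IDR summits. In the 201 bp centred on each of the 11 IDR summits, motif 1 occurred at 3 (Smg6, Dcp1 and pcm), against 7.22% of IDR summits at start sites. In windows of that length around the 19252 TSS positions of protein-coding genes (the TSS windows), its share was 5.68%. The DRE occurred at 1 (Upf1), against 10.4% of IDR summits at start sites and 6.45% of TSS windows, and the Upf2 peak outside the IDR list had another. The E-box occurred at 2 (the intronic Not1 peak at Nt5c and pcm), against 16.2% and 13.4%. The TATA box letters, TATAAA, occurred at 4 (Rrp6, both twin peaks and Dcp1), against 28.6% and 26.9%. The GAGA letters, GAGAGAG, occurred at 1 (the Not1 peak at asRNA:CR45281), against 6.68% and 4.69%. Motif 7, CAGCNCTA, occurred at none, against 3.78% and 2.53%. The intronic twin summit and the Not1 summit at asRNA:CR45281 had no protein-coding TSS within 250 bp, unlike the IDR summits they are set beside. Both strands were searched, no matches overlapped, and a match describes letters, not a bound factor.

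Over a wider list of 48 mRNA decay genes that includes the 10, 45 were found in the annotation, and 28 of them (62.2%) had a start-site IDR peak, against 30.4% of all protein-coding genes. Without the 10 members it was 21 of 35. The wider list was also chosen with earlier results of these data known, so no test is given for these counts. In the pooled list it was 44 of 45 (97.8%), against 55.4%, with LSm1 the exception, named after its value was seen. The strongest start-site peaks of the 28 had a median signal of 183.

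The counts differed by role. A shared promoter peak counts for both genes in them. Counting each summit for its nearest TSS only left 23 genes of the wider list (24.6% of all protein-coding genes), and that count was not split by role. In nonsense-mediated decay, 5 of 6 genes (83.3%) had a start-site IDR peak. Beside Smg5, Smg6 and Upf1 these were Smg1 (nonC in the annotation), the kinase that phosphorylates Upf1, with a signal of 195, and Upf3, which encodes a partner of Upf2, with a signal of 194. In deadenylation it was 11 of 12 (91.7%), led by PAN3, which encodes the regulatory subunit of the PAN2-PAN3 deadenylase, with a signal of 945. Tob followed at 260.5, then Rga at 191, twin at 173, Not3 at 172, Pop2, the second catalytic subunit of the CCR4-NOT complex, at 169, Not10 at 148, PAN2 at 141, Not11 at 137, Not1 at 125 and Cnot4 at 120. The remaining gene, Rcd-1, had a pooled signal of 65.9 and was named after its value was seen.

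The shares in the other roles were nearer to the 30.4% of all protein-coding genes. Of the 10 exosome genes, 4 (40.0%) had a start-site IDR peak, Rrp6 being joined by Csl4 (signal 328), Ski6 (250) and Rrp42 (185). The other 6, Dis3 among them, had pooled start-site peaks with signals from 38.4 to 114.5. Of the 4 exosome cofactor genes, 2 had one: tst, the helicase gene of the Ski complex, with a signal of 583, and Zcchc7, with one of 272, while the other 2 had pooled peaks below the IDR list. In decapping, 5 of 11 genes (45.5%) had a start-site IDR peak: tral (332), Dcp1 (181), LSm3 (179), Ge-1 (164) and me31B, a helicase gene that represses maternal mRNAs, at 143. Of the other 6, 5 had a pooled start-site peak. Of the 2 exonuclease genes, Rat1, the nuclear counterpart of pcm, had a start-site IDR peak with a signal of 125. Differences between roles were not tested.

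**Figure D4:**
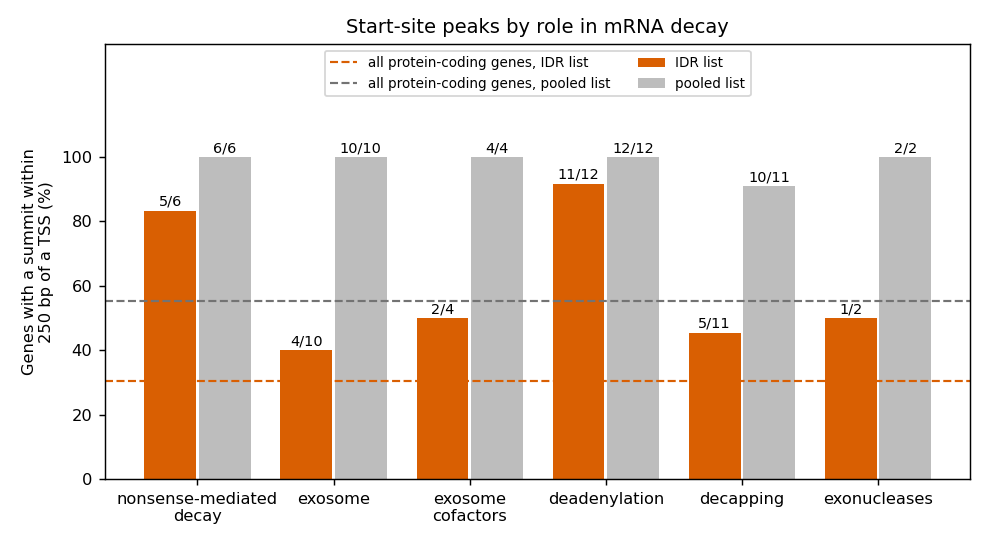
Share of genes in each role with a summit within 250 bp of a TSS, in percent, for the IDR list (orange) and the pooled list (grey), with counts above the bars; dashed lines give the same shares over all 13945 protein-coding genes, 30.4% and 55.4%. In the IDR list deadenylation (11 of 12) and nonsense-mediated decay (5 of 6) have the highest shares and the exosome (4 of 10) the lowest.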

How the data were processed

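Peak lists from ChIP-seq of 2 replicates were used. Per the file headers (descriptions deposited with the samples), each replicate list was made from the alignment of that replicate with a control. The pooled list used both alignments, and the IDR list was made from the replicate and pooled lists, all on dm6. Aligner and peak caller: not given in the sources used here. Signal values, −log10 q-values (a single value throughout the IDR list, and not used) and summit offsets are as deposited by the authors. Depth per sample, and the precision it would give, is unknown.

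Genes and TSSs came from Ensembl release 115. A peak belonged to a gene if its summit lay in it or within 1 kb, and to a TSS if within 250 bp. Replicate summits within 100 bp were matched. Python 3.11.15, numpy 2.4.6, pandas 2.3.3 and matplotlib 3.10.9 were used, and the assignment was tested on simulated data. Members, lists, motifs and alternatives were chosen with earlier results of these data known, so counts stand beside the share over all genes, without a test. The text names all 10 members, the gene with the nearest TSS at their peaks or facing their start, and wider-list genes with a start-site IDR peak, other names being marked. In the wider list 3 LSm symbols had no match and were not analysed here. Alternatives covered windows, peak strength, single replicates and motif windows.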

Additional observations from a re-analysis of the deposited data

How the results depend on the processing

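Of 43 alternatives for the counts and shares, 29 stayed within 1.5 times the reported value. In the stronger 3361 IDR peaks, 5 members had a peak in the gene or within 1 kb. At a TSS, 4 members (Smg5, Upf1, Rrp6 and Dcp1), 15 of the wider list and 17.1% of all protein-coding genes had one. For peaks in the gene or within 1 kb, the share of all genes was not computed in the alternatives. A 100 bp window left 18 of the wider list and 18.7% of all genes. All pooled peaks gave 44 of the wider list and 55.4% of all genes. The members at a TSS were 5 with that 100 bp window and also when each summit counted for its nearest TSS only, which dropped twin and Dcp1 and left 23 of the wider list and 24.6% of all genes. With 1 replicate left out, the strongest 6723 peaks of the other gave 7 members at a TSS in both cases (Upf2 in place of Upf1 in replicate 3), 7 to 8 in the gene or within 1 kb, 23 to 30 of the wider list and 29.4% to 29.8% of all genes. When only the 6723 strongest peaks of each replicate were searched, 7 of the 11 member summits were found in both. The share over all IDR summits was not computed for that search. Motif counts moved with the window. With 50 bp to each side motif 1 occurred at 2 summits, the TATA box letters at 3, the E-box at 1 and GAGA at 0. With 200 bp the DRE occurred at 2, the E-box at 5 and motif 7 at 1. Shares over all start-site summits were not computed for these windows. Ranks rest on 2 replicates of unknown depth, and TSS windows count a shared promoter peak for both genes. No paired analysis was possible because the series has a single group.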
